A study of Mus musculus with 6 samples.

Results

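The transcripts of 8 cytokine genes, Il6, Il12a, Il12b, Il23a, Il27, Ebi3, Lif and Osm, were followed in mouse peritoneal macrophages. They were picked by gene symbol out of 23699 gene rows, and all 8 were found once and were usable in every library. Cells came from C57Bl/6 mice labelled miR-221/222 -/Y (KO), a male whose only X chromosome lacks the Mir221 and Mir222 genes, or wildtype (WT), and all were kept in DMEM with serum and antibiotics. Tolerized cells (titled Tolerized+LPS) had 10 ng/ml of lipopolysaccharide (LPS, a bacterial cell wall component) for 15 hours, a wash, 2 hours of rest and then 4 hours with LPS at 1000 ng/ml. LPS cells had the last dose alone, and naive cells had no LPS. Each of the 6 groups was 1 library of poly-A RNA. The design text speaks of triplicates, and neither pooling nor the number of mice is given in the sources used here. Levels are FPKM, fragments scaled to transcript length and sequencing depth, each with an interval deposited by the authors. Each interval belongs to 1 library and holds no spread between libraries. The question in the series title is how miR-222 bears on the response of tolerized macrophages to LPS.

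The members fall into overlapping families of secreted proteins. IL-6, LIF and oncostatin M are single chains that signal through the shared receptor chain gp130, encoded by Il6st, to JAK kinases and STAT3. The IL-12 family are heterodimers of an alpha chain (p35 from Il12a, p19 from Il23a or p28 from Il27) and a beta chain (p40 from Il12b or EBI3 from Ebi3). IL-12 is p35 with p40, IL-23 is p19 with p40, IL-27 is p28 with EBI3 and IL-35 is p35 with EBI3. LPS acts on macrophages through TLR4 and NF-kappaB, and macrophages that have already met LPS are known to make less of several inflammatory cytokines at the next challenge.

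Of the microRNAs deleted in the KO, miR-221-3p and miR-222-3p are shown because the genotype comparison turns on the deletion. They lie on chromosome X, minus strand, and come from RefSeq (GRCm38.p6), written 5′ to 3′ with the seed, bases 2 to 8, in capitals.
mmu-miR-221-3p: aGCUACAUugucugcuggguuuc
mmu-miR-222-3p: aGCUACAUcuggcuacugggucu
Both carry the seed GCUACAU, whose DNA target word is ATGTAGC. That word occurred in the longest annotated 3′ UTR (GENCODE M21, GRCm38) of 0 of the 8 cytokine genes, against 9.42% of 20987 genes. The microRNA mmu-miR-221-5p, also made from Mir221, has another seed, and its target word was not searched for. Both microRNA rows were listed at 0 FPKM in all 6 libraries, WT included, so these poly-A libraries cannot check the deletion.

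The 250 bases before the transcription start are shown for 4 members that differ in how they moved: Il6, with the highest level, Il12b and Lif, with nearly the same profile, and Ebi3, which did not follow the others. They are RefSeq sequences (GRCm38.p6), written 5′ to 3′ in the direction of transcription, with the motif matches named below in capitals.
Il6 (chr5:30012864-30013113, plus strand): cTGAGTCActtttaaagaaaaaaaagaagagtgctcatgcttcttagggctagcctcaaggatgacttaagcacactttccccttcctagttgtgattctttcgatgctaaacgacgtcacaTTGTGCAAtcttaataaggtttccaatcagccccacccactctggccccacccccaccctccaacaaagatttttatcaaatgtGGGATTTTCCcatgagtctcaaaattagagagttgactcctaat
Lif (chr11:4257318-4257567, plus strand): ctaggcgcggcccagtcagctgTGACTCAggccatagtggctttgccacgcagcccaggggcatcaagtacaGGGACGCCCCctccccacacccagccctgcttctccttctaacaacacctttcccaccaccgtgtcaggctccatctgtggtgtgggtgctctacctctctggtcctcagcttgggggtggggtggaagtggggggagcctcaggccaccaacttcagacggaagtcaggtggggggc
Il12b (chr11:44399813-44400062, plus strand): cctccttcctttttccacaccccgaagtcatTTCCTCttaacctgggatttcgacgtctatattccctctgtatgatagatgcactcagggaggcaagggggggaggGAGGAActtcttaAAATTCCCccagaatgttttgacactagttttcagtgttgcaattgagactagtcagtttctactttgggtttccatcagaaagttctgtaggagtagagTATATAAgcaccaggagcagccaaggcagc
Ebi3 (chr17:55952373-55952622, plus strand): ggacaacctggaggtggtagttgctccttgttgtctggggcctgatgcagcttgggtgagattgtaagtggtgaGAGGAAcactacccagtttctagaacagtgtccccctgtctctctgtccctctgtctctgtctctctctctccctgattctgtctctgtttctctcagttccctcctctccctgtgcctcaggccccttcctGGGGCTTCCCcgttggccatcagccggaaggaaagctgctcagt
Motifs were searched on both strands, and each position is the distance of the match's far end from the start. A loose form of the NF-kappaB consensus lay 44 bases before the start of Il6, 178 before that of Lif and 44 before that of Ebi3, and 7.25% of 32851 mouse promoters of the same length held one. The Il12b promoter held the NF-kappaB half-site GGGAATTT at 130 bases, which 0.843% of promoters held; this word was added after the Il12b promoter had been read. The C/EBP word TTGCNNAA, in 9.56% of promoters, was found in Il6 at 128 bases. The AP-1 word TGANTCA, in 6.75%, was found in Il6 at 249 and in Lif at 228 bases. The PU.1 word GAGGAA, in 23.3%, was found at 2 places in Il12b, the farther at 219 bases, and in Ebi3 at 176. The TATA word TATANAA, in 10.4%, was found in Il12b at 30 bases. No member promoter searched, the 2 windows of Il12a included, held the STAT word TTCNNNGAA (7.02% of promoters) or the interferon-stimulated response element (2.98%). The Il12a windows held none of the words searched. No matches of different motifs overlapped. Il23a, Il27 and Osm were not searched.

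Macrophage markers were present in every library, with markers of B cells and mast cells beside them. Of 11 macrophage markers, 11 reached 2 FPKM in the LPS and naive libraries and 10 in the tolerized ones, where Gata6 had 0.576 and 1.07 FPKM in KO and WT cells. All 5 B cell markers and all 4 mast cell markers also reached 2 FPKM in every library, with summed FPKM of 250.2 to 649.3 and 102.9 to 192.1. The B cell sum was 528, 250.2 and 490.6 in tolerized, LPS and naive KO cells, against 421.1, 281.3 and 649.3 in tolerized, LPS and naive WT cells, so it moved with condition. The mast cell sum was 183.6, 102.9 and 122.6 in the KO cells, against 192.1, 153.8 and 134.6 in the WT cells, in the same condition order. T cell markers summed to 2.27 to 10.7 FPKM, dendritic cell markers to 15.3 to 61.8, of which Ccr7 made up most, NK cell markers to at most 1.00, eosinophil markers to at most 0.195 and mesothelial and fibroblast markers to at most 4.95. Of the neutrophil markers S100a8 had 65.3 to 341.4 FPKM and Camp 0.738 (naive WT) to 8.85 (tolerized WT). Mpo had at most 0.147, while S100a9 and Ngp were listed at 0 in all 6 libraries. The part of these cells in the results below was not tested, and in bulk RNA fewer cells of a type and less RNA per cell cannot be told apart. The median interval half-width was 5.03% to 5.97% of the value from 10 FPKM and 13.7% to 16.1% at 2 to 5 FPKM.

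**Figure D1:**
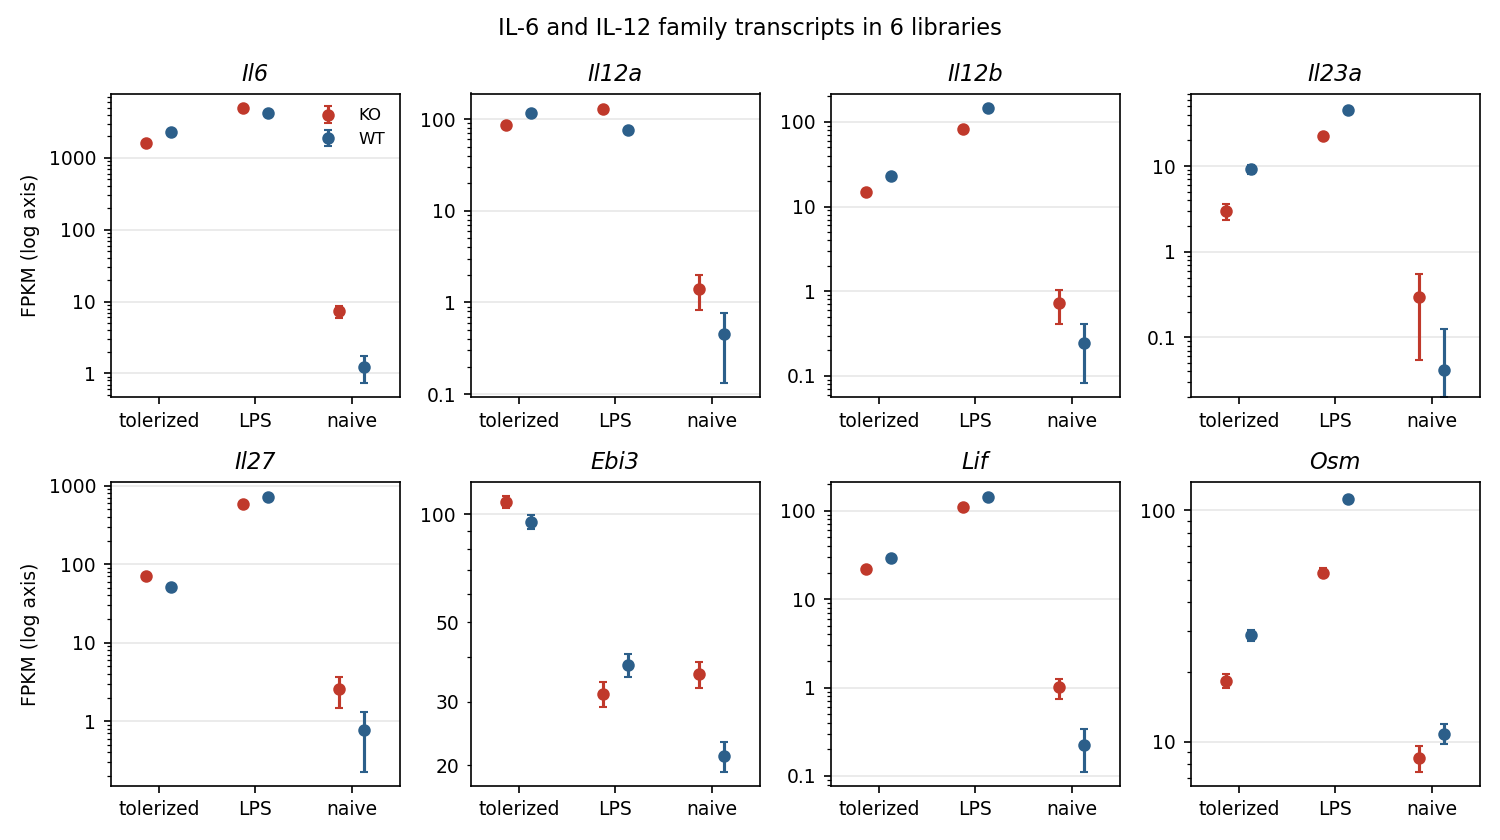
FPKM (log axis, a scale of its own in each panel) of the 8 cytokine transcripts in tolerized, LPS and naive macrophages; red points are KO and blue points WT libraries, 1 library each, and bars are the deposited intervals, which end at 0 for Il23a in naive WT cells and so run off the axis. In 7 panels both naive points lie lowest, and in the Ebi3 panel both tolerized points lie highest, at 108.3 (KO) and 95.2 (WT) FPKM.

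Against naive cells, LPS cells had far more of 7 of the 8 transcripts, and Ebi3 was the exception. The 7 rose by 2.89 to 10.04 on the log2(FPKM + 1) scale in a limma fit across 10139 genes with genotype and condition as terms. In that fit a condition has 2 libraries, KO and WT, so a change seen in a single genotype enters the spread, and the p-values measure only the spread between these libraries, which may be technical. Of all tested genes, 8.74% rose. Il6, Il12a, Il12b, Il23a, Il27 and Lif entered the fit only through their levels in stimulated cells. Their p-values against naive cells are therefore descriptions.

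Il6 encodes the fever and acute-phase cytokine IL-6 (mm9 chromosome 5, 30339701 to 30346508). It had 5013 FPKM (interval 4980 to 5045) in LPS KO cells and 7.32 (5.93 to 8.70) in naive KO cells, against 4138 (4106 to 4169) in LPS WT cells and 1.25 (0.727 to 1.77) in naive WT cells. Among 22162 usable genes it ranked 13 in LPS KO cells and 19 in LPS WT cells, and 7267 and 10558 in naive KO and WT cells. It rose by 10.04 ± 0.56 (log2 ± SE, limma, Benjamini-Hochberg adjusted p = 0.00034). Both LPS libraries lay above both naive libraries.

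Il27, the p28 chain of IL-27 (mm9 chromosome 7, 133732809 to 133738424), was second in level in both LPS libraries. It had 584.6 and 2.56 FPKM in LPS and naive KO cells, against 724.8 and 0.771 FPKM in LPS and naive WT cells. It rose by 8.02 ± 0.33 (limma adjusted p = 0.00034).

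Lif, which encodes leukaemia inhibitory factor (mm9 chromosome 11, 4157571 to 4172517), had 111.1 and 1.00 FPKM in LPS and naive KO cells, against 144.8 and 0.225 in LPS and naive WT cells. Il12b, the p40 chain shared by IL-12 and IL-23 (mm9 chromosome 11, 44213565 to 44227519), had 81.4 and 0.722 FPKM in LPS and naive KO cells, against 144.4 and 0.245 in LPS and naive WT cells. Their intervals overlapped in LPS WT cells and not in LPS KO cells. Lif rose by 6.35 ± 0.31 and Il12b by 6.22 ± 0.33 (limma adjusted p = 0.00034 for each).

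The alpha chains of IL-12 and IL-23 followed. Il12a (p35, mm9 chromosome 3, 68494566 to 68502469) had 129.6 and 1.40 FPKM in LPS and naive KO cells, against 75.9 and 0.453 in LPS and naive WT cells, and rose by 5.75 ± 0.34 (limma adjusted p = 0.00035). Il23a (p19, mm9 chromosome 10, 127733196 to 127735140) had 22.6 and 0.299 FPKM in LPS and naive KO cells, against 45.0 and 0.0413 in LPS and naive WT cells, and rose by 4.82 ± 0.39 (limma adjusted p = 0.00048). The interval of Il23a in naive WT cells reached 0, and its width corresponds to a single fragment.

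Osm, which encodes oncostatin M (mm9 chromosome 11, 4136788 to 4141029, 16541 bases from Lif), was already present in naive cells. It had 53.8 and 8.49 FPKM in LPS and naive KO cells, against 111.8 and 10.8 in LPS and naive WT cells. It rose by 2.89 ± 0.24 (limma adjusted p = 0.0005).

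Ebi3, the beta chain of IL-27 (mm9 chromosome 17, 56092046 to 56096445), had the highest level of the 8 in both naive libraries. It had 31.6 (29.1 to 34.0) and 35.8 (32.9 to 38.7) FPKM in LPS and naive KO cells, against 38.0 (35.1 to 40.9) and 21.2 (19.2 to 23.3) in LPS and naive WT cells. The intervals overlapped in KO cells and not in WT cells. The difference of 0.32 ± 0.28 did not pass the test (limma adjusted p = 0.356), but after rescaling the libraries by median of ratios it was 1.15 and passed (adjusted p = 0.0153).

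That rescaling matters because the level of most genes was lower after LPS: the median change over all tested genes was -0.76, with 886 genes that rose and 5511 that fell. After rescaling 2292 rose and 2458 fell, and all 8 cytokine genes rose. The 8 had a median change of 5.98, before rescaling. Il12a, Il12b, Il23a and Lif were under 2 FPKM in both naive libraries, and Il6 and Il27 in the naive WT library. The filter on low values asks for 2 libraries, so all of these passed it only through the stimulated ones. Their counts and p-values in this comparison are descriptions. With each genotype taken alone and a rule of at least 2-fold, 7 of 8 were higher in LPS than in naive KO cells, against 6.96% of all genes, and the same 7 in WT cells, against 8.14%. A gene entered with 2 FPKM in either library. In each genotype most of the 7 reached that in the LPS library alone, so nothing is read from these counts.

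**Figure D2:**
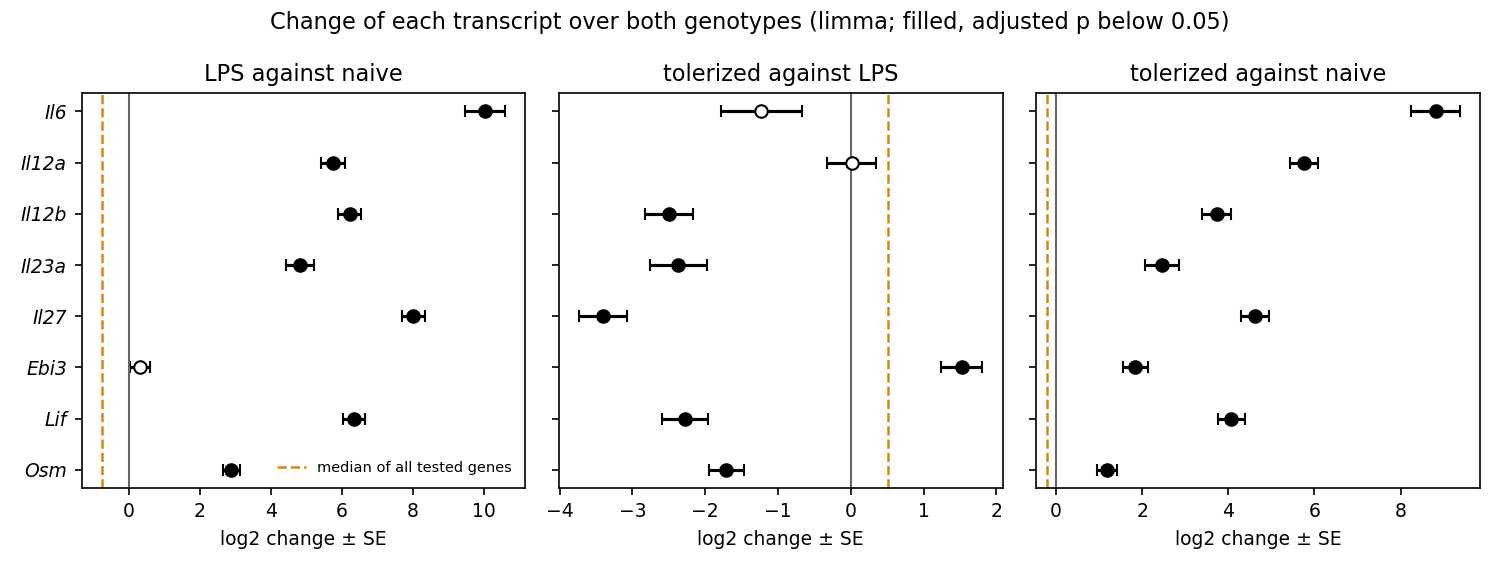
Change of each cytokine transcript on the log2(FPKM + 1) scale over both genotypes (limma, points with SE bars) for LPS against naive, tolerized against LPS and tolerized against naive; filled points passed an adjusted p of 0.05, and the dashed line is the median of all 10139 tested genes. In the middle panel Il27 lies lowest at -3.40 and Ebi3 highest at 1.52, with Il6 and Il12a open.

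In tolerized cells the calls differed between members. Against LPS cells, Il12b, Il23a, Il27, Lif and Osm fell, with log2 changes of -1.71 to -3.40. Ebi3 rose, before rescaling only, and Il6 and Il12a did not pass the test. Il6 was still lower in both genotypes, at 32.4% (KO) and 56.0% (WT) of its LPS level. Whether its change differs from those of the members that fell was not tested. Of all tested genes 4.32% fell and 36.8% rose. The LPS libraries serve in this comparison and in that with naive cells, so the changes of one are not independent of the other.

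Il27 had the lowest share of its LPS level left in both genotypes. In KO cells the range of Il23a (9.59% to 17.6%) spanned that of Il27, so only WT cells set Il27 apart. It had 70.9 and 584.6 FPKM in tolerized and LPS KO cells, against 51.8 and 724.8 in tolerized and LPS WT cells. The tolerized level was 12.1% (11% to 13.3%) of the LPS level in KO cells and 7.15% (6.42% to 7.91%) in WT cells, and the change was -3.40 ± 0.33 (limma adjusted p = 0.00692). These percent ranges combine the deposited interval ends, so they hold no spread between replicate libraries. Rescaling multiplies every such share by 0.635 in KO cells and 0.681 in WT cells.

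Both genes that encode IL-23 fell. Il23a had 2.997 and 22.6 FPKM in tolerized and LPS KO cells, against 9.20 and 45.0 in tolerized and LPS WT cells, so 13.2% (9.59% to 17.6%) of the LPS level was left in KO cells and 20.5% (16.9% to 24.6%) in WT cells. Il12b had 14.8 and 81.4 FPKM in tolerized and LPS KO cells, against 22.8 and 144.4 in tolerized and LPS WT cells, or 18.2% (16.2% to 20.3%) in KO cells and 15.8% (14.4% to 17.3%) in WT cells. The percent ranges of the genotypes overlap for both genes. The changes were -2.37 ± 0.39 for Il23a and -2.50 ± 0.33 for Il12b (limma adjusted p = 0.00961 and 0.00786). The call for Il23a was lost without the LPS KO library (adjusted p = 0.0528) or the LPS WT library (0.0566).

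Lif kept nearly the same share in both genotypes, 19.8% (18.5% to 21.2%) in KO cells and 20.1% (18.9% to 21.3%) in WT cells. Its levels were 22.0 and 111.1 FPKM in tolerized and LPS KO cells, against 29.1 and 144.8 in tolerized and LPS WT cells, a change of -2.28 ± 0.31 (limma adjusted p = 0.00788). Osm had 18.3 and 53.8 FPKM in tolerized and LPS KO cells, against 28.8 and 111.8 in tolerized and LPS WT cells. Its shares were 34.1% (30.3% to 38.2%) in KO cells and 25.8% (23.5% to 28.2%) in WT cells, with a change of -1.71 ± 0.24 (limma adjusted p = 0.00788).

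Il6 stayed among the most abundant transcripts. It had 1624 (1606 to 1641) and 5013 FPKM in tolerized and LPS KO cells, against 2317 (2297 to 2338) and 4138 in tolerized and LPS WT cells. It ranked 34 in tolerized KO cells and 24 in tolerized WT cells. The tolerized level was 32.4% (31.8% to 32.9%) of the LPS level in KO cells and 56.0% (55.1% to 56.9%) in WT cells, and both tolerized libraries lay below both LPS libraries. The change of -1.23 ± 0.56 did not pass (limma adjusted p = 0.122; 0.0594 after rescaling). Without the tolerized WT library the change was -2.03, with tolerized cells then represented by the KO library alone. Without either naive library it stayed at -1.23. The call for Il6 depended on which libraries were kept.

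Il12a had a lower tolerized than LPS level in KO cells and a higher one in WT cells, the second nearly gone after rescaling. It had 85.5 (82.0 to 89.2) and 129.6 (124.9 to 134.3) FPKM in tolerized and LPS KO cells, against 116.6 (112.4 to 120.8) and 75.9 (72.1 to 79.8) in tolerized and LPS WT cells. The tolerized level was 66.0% (61.0% to 71.4%) of the LPS level in KO cells and 153.6% (141% to 168%) in WT cells, and after rescaling 41.95% in KO cells and 104.6% in WT cells. The log2 differences after rescaling were -1.24 in KO cells and 0.06 in WT cells. The change over both genotypes was 0.01 ± 0.34 (limma adjusted p = 0.985). With 1 library per group the difference between genotypes was not tested.

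Ebi3 was higher in both tolerized libraries than in any other. It had 108.3 (104.1 to 112.6) FPKM in tolerized KO cells and 95.2 (91.2 to 99.3) in tolerized WT cells, 342.8% and 250.5% of the LPS level of the same genotype. It rose by 1.52 ± 0.28 (limma adjusted p = 0.0115). The median gene was 0.51 higher in tolerized than in LPS cells, and after rescaling the change of Ebi3 was 0.93 and no longer passed (adjusted p = 0.0573). The call was also lost without the LPS KO library (adjusted p = 0.0683).

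Over all tested genes 3733 rose and 438 fell in tolerized against LPS cells, and 898 and 941 after rescaling. The 8 members had a median change of -2.00, and after rescaling 5 fell and 0 rose. By the 2-fold rule within a genotype, 6 of 8 were lower in tolerized than in LPS KO cells, against 4.30% of all genes, and 5 of 8 in WT cells, against 4.54%. Il6 made the difference between these counts. Ebi3 was the 1 member at least 2-fold higher in each genotype, against 24.0% of all genes in KO cells and 20.8% in WT cells.

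**Figure D3:**
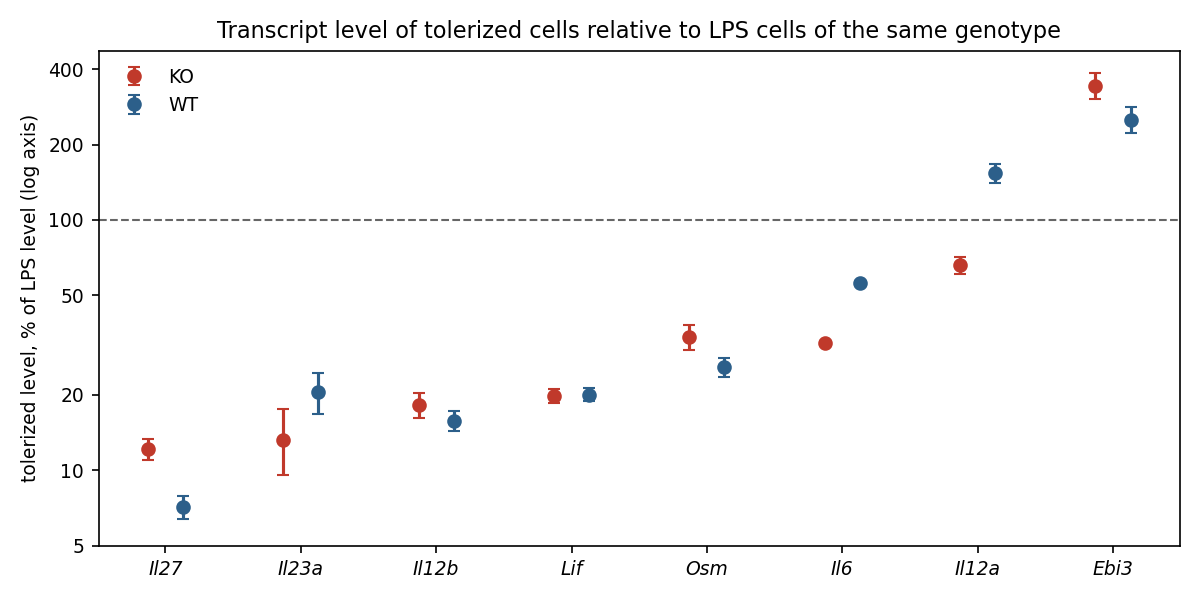
Level of each cytokine transcript in tolerized cells as a percent of its level in LPS cells of the same genotype (log axis); red points are KO and blue points WT, and bars span the ratios allowed by the deposited intervals of both libraries. Il27 lies lowest at 12.1% (KO) and 7.15% (WT), though the KO bar of Il23a spans that of Il27. Il12a lies at 66.0% (KO) and 153.6% (WT), which became 41.95% (KO) and 104.6% (WT) after rescaling.

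Tolerized cells had more of all 8 transcripts than naive cells. All 8 rose, where 7.41% of tested genes did and the all-gene median was -0.22. As with LPS, Il6, Il12a, Il12b, Il23a, Il27 and Lif passed the filter only through the stimulated libraries. The count and the p-values of these genes are therefore descriptions. The rises were 8.81 for Il6, 5.75 for Il12a, 4.62 for Il27, 4.07 for Lif, 3.73 for Il12b, 2.46 for Il23a, 1.84 for Ebi3 and 1.18 ± 0.24 for Osm (limma adjusted p = 0.00157 to 0.0169). Osm lost its call without the tolerized KO (adjusted p = 0.0651), tolerized WT (0.0617) or naive WT library (0.0811). All 8 were at least 2-fold higher within each genotype, against 6.32% of all genes in KO cells and 7.95% in WT cells. Il12a, Il12b, Il23a and Lif, and in WT cells also Il6 and Il27, reached 2 FPKM in the tolerized library of the pair alone. These counts are therefore descriptions as well.

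The order of the members shifted with condition. In LPS cells Il6 and Il27 led and Ebi3 was last or last but one. In tolerized cells Il6 led, Ebi3 and Il12a came next and Il23a was last, in both genotypes. In naive cells Ebi3 led, and below Il6 most neighbours had overlapping intervals.

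Since FPKM is per length, the chains of a heterodimer can be set side by side within a library, as RNA levels only. Il12b over Il12a, the IL-12 pair, was 0.173 (0.153 to 0.195), 0.628 (0.584 to 0.675) and 0.514 in tolerized, LPS and naive KO cells, against 0.196, 1.90 (1.76 to 2.06) and 0.541 in tolerized, LPS and naive WT cells. In LPS cells the p40 transcript was thus below the p35 transcript in KO cells and above it in WT cells, and in tolerized cells it was below in both. Il12b over Il23a, the IL-23 pair, was 4.94, 3.6 and 2.42 in tolerized, LPS and naive KO cells, against 2.48, 3.21 and 5.93 in tolerized, LPS and naive WT cells. The last rests on that 1 fragment of Il23a, and its range runs from 0.659 with no upper bound.

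The IL-27 pair turned over most. Ebi3 over Il27 was 1.53, 0.054 and 14.0 in tolerized, LPS and naive KO cells, against 1.84, 0.0525 and 27.5 in tolerized, LPS and naive WT cells. In LPS cells the p28 transcript was thus 18.5 times the EBI3 transcript in KO cells and 19.1 times in WT cells, whereas EBI3 was the higher one in tolerized and naive cells. Ebi3 over Il12a, the IL-35 pair, was 1.27, 0.244 and 25.5 in tolerized, LPS and naive KO cells, against 0.817, 0.501 and 46.8 in tolerized, LPS and naive WT cells; this ratio was added after the values were seen.

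**Figure D4:**
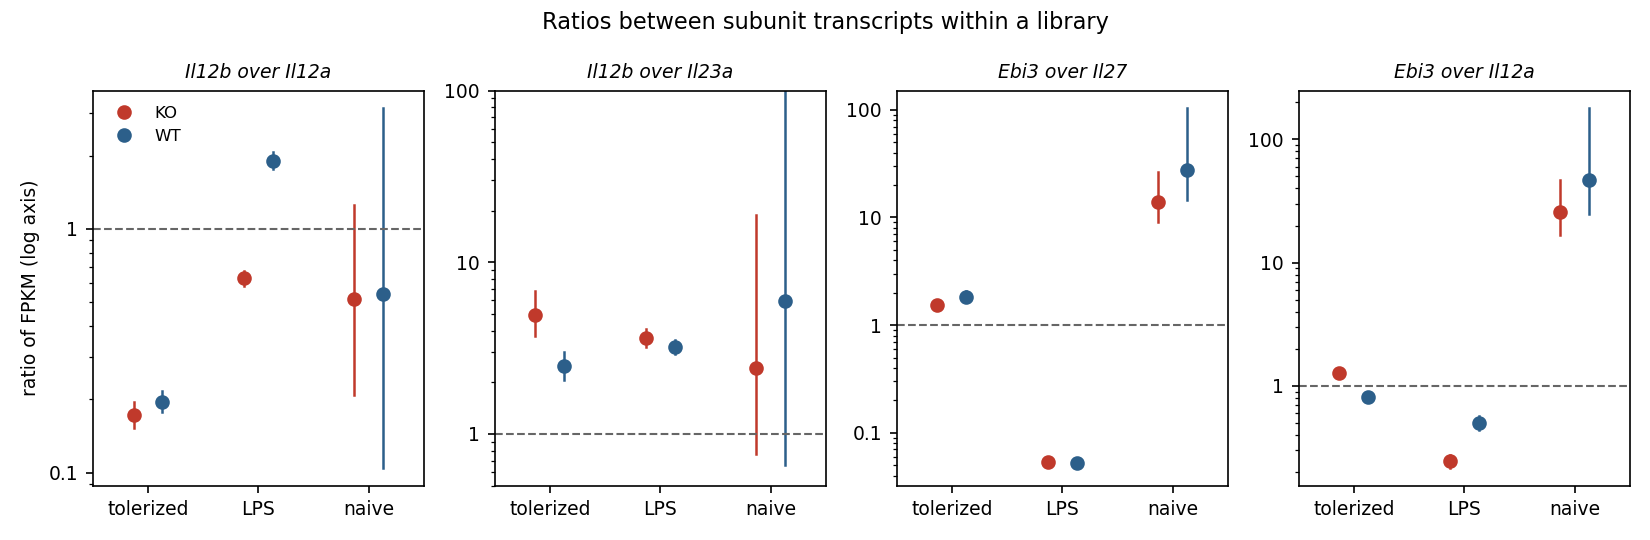
Ratio of FPKM (log axis) of partner chains within each library, in tolerized, LPS and naive cells; red points are KO and blue points WT, bars span the ratios allowed by the deposited intervals, the upper one for Il12b over Il23a in naive WT cells has no bound and runs off the axis, and the dashed line marks equal levels. Ebi3 over Il27 lies near 0.05 in both LPS libraries, at 0.054 (KO) and 0.0525 (WT), and above 1 in the other 4.

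Between KO and WT cells the limma fit called none of the 8 transcripts. It called no other tested gene either, so nothing about the members is read from this. A genotype difference that varies with condition enters the spread of that fit. The limma fit called 0% of the 10139 genes as risen and 0% as fallen, as did a fit without the trend term, while 707 genes and 1 member had an unadjusted p under 0.05. That member was Osm, at -0.66 ± 0.20 (unadjusted p = 0.0142, adjusted p = 0.526). Without the tolerized KO library 155 genes rose and 82 fell, and without the tolerized WT library 152 and 83, none of them a member.

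Osm was lower in KO than in WT cells in 3 of 3 conditions, with 18.3 against 28.8 FPKM in tolerized, 53.8 against 111.8 in LPS and 8.49 against 10.8 in naive cells. The log2 differences were -0.63, -1.04 and -0.32. Il23a, at -0.66 ± 0.32 over all conditions (limma adjusted p = 0.77), was lower in KO than in WT cells after LPS, with 2.997 against 9.20 FPKM in tolerized and 22.6 against 45.0 FPKM in LPS cells, or -1.35 and -0.96. Its naive intervals overlapped. The other 6 members had fitted differences of -0.31 to 0.55 with adjusted p from 0.827 to 0.989.

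In naive cells the KO library had the higher value for 7 transcripts, most of them on few fragments, and for Il23a the intervals overlapped. Il6 had 7.32 FPKM in naive KO and 1.25 in naive WT cells, about 112 and 23 fragments as judged from the interval widths, a difference of 1.89. Il27 had 2.56 and 0.771 FPKM in naive KO and WT cells, about 22 and 8 fragments, a difference of 1.01. Il6 and Il27 were at least 2-fold higher in naive KO cells, as were 3.95% of all genes, but both reached 2 FPKM in the KO library alone, so nothing is read from their count. Ebi3 had 35.8 and 21.2 FPKM in naive KO and WT cells, a difference of 0.73 on about 601 and 429 fragments.

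After LPS the directions were mixed. In LPS cells Osm was the 1 of 8 at least 2-fold lower in KO than in WT cells, against 3.05% of all genes, and in tolerized cells Il23a was, against 0.774%. Il12a was 0.76 higher in LPS KO than in LPS WT cells, and Il12b 0.82 lower, each with intervals that did not overlap. Il6 was 0.28 higher in LPS and 0.51 lower in tolerized KO than WT cells. These are differences between single libraries, with no replicate check.

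Of the 11 receptor genes of the family listed, 4 passed the filter on low values, and all 4 fell in LPS against naive cells, with a median of -1.39, where 54.4% of all tested genes fell and the all-gene median was -0.76. After rescaling 2 of the 4 fell, against 24.2% of all genes. Il6ra, the IL-6 binding chain, had 7.37, 0.612 and 9.97 FPKM in tolerized, LPS and naive KO cells, against 6.15, 0.846 and 25.1 in tolerized, LPS and naive WT cells. It fell by 3.29 ± 0.36 with LPS (limma adjusted p = 0.00078) and rose by 2.17 ± 0.36 in tolerized against LPS cells (adjusted p = 0.00931), with or without rescaling. Il27ra, the IL-27 binding chain, fell by 1.39 ± 0.18 with LPS (adjusted p = 0.0013), also after rescaling.

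Il6st, which encodes gp130, had 11.3, 6.98 and 17.6 FPKM in tolerized, LPS and naive KO cells, against 15.9, 8.04 and 21.6 in tolerized, LPS and naive WT cells. It fell by 1.27 ± 0.19 with LPS (limma adjusted p = 0.00215) and rose by 0.76 ± 0.19 in tolerized cells (adjusted p = 0.0248), and neither call held after rescaling. Il11ra1, the IL-11 binding chain, fell by 1.40 ± 0.27 with LPS, not after rescaling, and by a further 0.90 ± 0.27 in tolerized against LPS cells (limma adjusted p = 0.00515 and 0.0404). The other 7 were not tested; Il12rb1 and Osmr, receptor chains for IL-12 and oncostatin M, had at most 0.735 and 0.785 FPKM. Of 7 further ligands only Clcf1 passed the filter, and it rose by 0.68 ± 0.22 with LPS (limma adjusted p = 0.0355).

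Of 12 tested JAK-STAT and SOCS genes (Jak2, not marked OK in every library, was left out) 5 rose and 2 fell with LPS, and 9 and 0 after rescaling. Over all tested genes 8.74% rose and 54.4% fell, and 22.6% and 24.2% after rescaling. The median of the 12 was 0.69. Socs3, the feedback inhibitor of gp130 signals, had 295.6, 326.6 and 34.5 FPKM in tolerized, LPS and naive KO cells, against 323.7, 377.9 and 13.2 in tolerized, LPS and naive WT cells. It rose by 3.97 ± 0.41 with LPS (limma adjusted p = 0.00072) and differed by -0.18 ± 0.41 between tolerized and LPS cells (adjusted p = 0.745). Socs1 and Cish, inhibitors of the same family, rose by 4.63 ± 0.57 and 3.41 ± 0.66 with LPS (adjusted p = 0.00108 and 0.00522). Stat3 differed by 0.71 ± 0.26 with LPS (adjusted p = 0.0516), a rise only after rescaling. In tolerized against LPS cells 2 of the 12, Ptpn6 (1.31 ± 0.29) and Tyk2 (0.82 ± 0.19), rose and 0 fell. Neither held after rescaling, where 2 fell and 0 rose. In that comparison 36.8% of all tested genes rose and 4.32% fell, and 8.86% and 9.28% after rescaling.

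Of 15 regulators of transcription of these cytokine genes 7 rose and 1 fell with LPS (12 and 0 after rescaling), and 1 rose and 4 fell in tolerized against LPS cells (0 and 6 after rescaling). Their medians were 0.77 with LPS and -0.60 in tolerized cells. Over all tested genes the shares with LPS are those given above, and in tolerized against LPS cells 36.8% rose and 4.32% fell (8.86% and 9.28% after rescaling). Irf1, a factor for Il12a and Il27 promoters, had 63.6, 503.4 and 76.3 FPKM in tolerized, LPS and naive KO cells, against 73.3, 314.5 and 65.6 in tolerized, LPS and naive WT cells. It rose by 2.47 ± 0.29 with LPS and fell by 2.53 ± 0.29 in tolerized cells (limma adjusted p = 0.00094 and 0.00692). Nfkbiz, an atypical IkappaB protein needed for Il6 and Il12b induction, rose by 4.00 ± 0.24 with LPS and fell by 1.17 ± 0.24 in tolerized cells (adjusted p = 0.00035 and 0.0136). Nfkb1, which encodes the p50 subunit of NF-kappaB, fell by 1.03 ± 0.24 in tolerized cells (adjusted p = 0.0185).

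Il10, the inhibitory cytokine in that list, rose by 4.28 ± 0.27 with LPS (limma adjusted p = 0.00036). It had 54.7 and 50.5 FPKM in tolerized and LPS KO cells, against 27.1 and 49.0 in tolerized and LPS WT cells, a difference of -0.36 ± 0.27 that did not pass (adjusted p = 0.315).

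**Figure D5:**
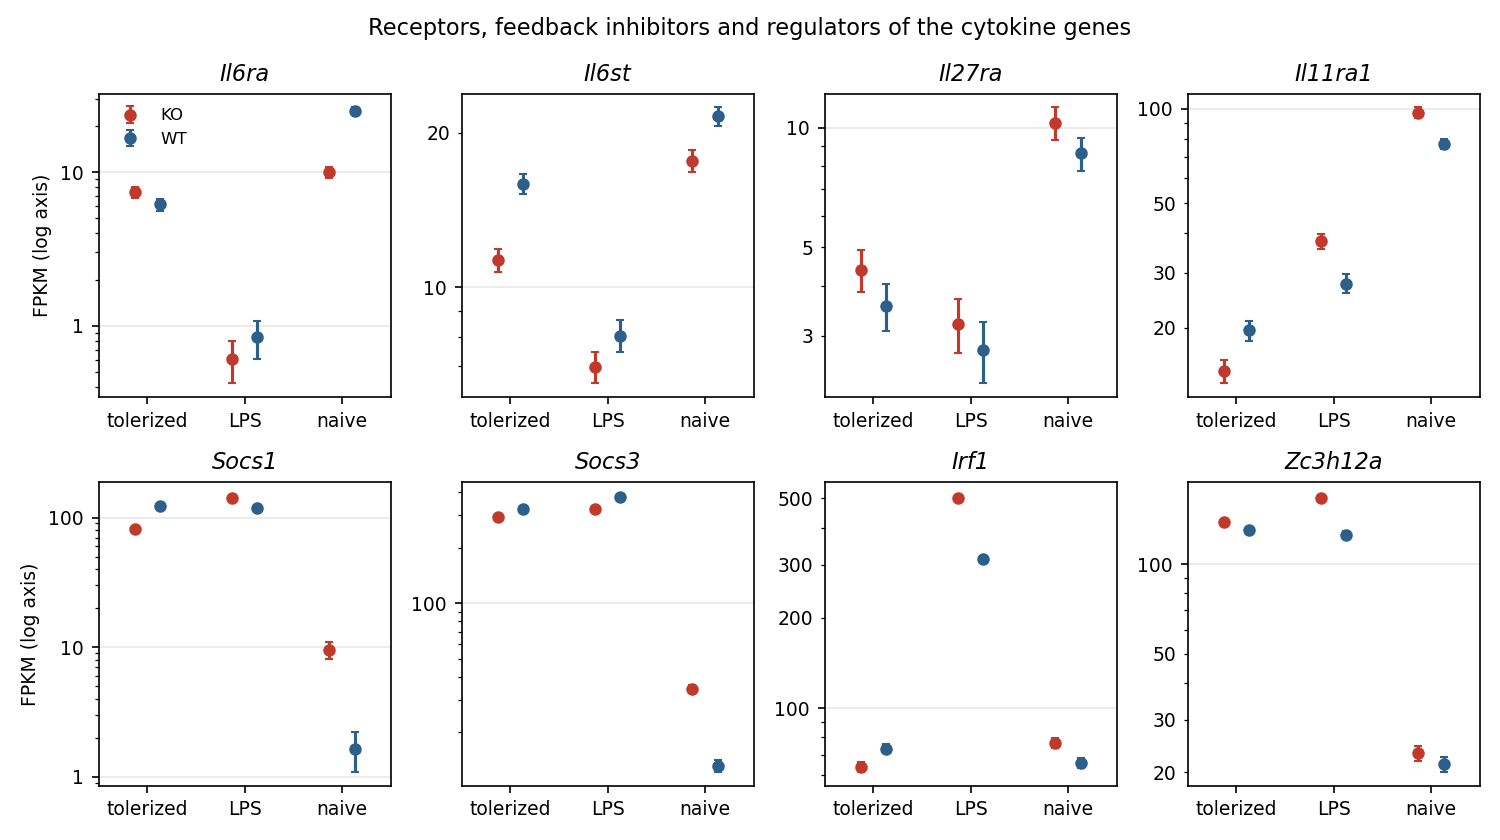
FPKM (log axis, a scale of its own in each panel) of 4 receptor genes, 2 SOCS genes, Irf1 and Zc3h12a in tolerized, LPS and naive cells; red points are KO and blue points WT libraries, and bars are the deposited intervals. Il6ra is lowest in both LPS libraries, at 0.612 (KO) and 0.846 (WT), and Irf1 is highest in them, at 503.4 (KO) and 314.5 (WT).

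The 3′ UTRs of the cytokine genes are known for AU-rich elements, read by decay factors. The word ATTTA occurred 10 times in Il6, 7 in Lif, 6 in each of Il12a, Il12b, Il23a and Osm, 5 in Il27 and 1 in Ebi3. Per kilobase that is 17.5 in Il27, 12.1 in Il12a, 9.13 in Il23a, 7.53 in Il12b, 5.99 in Il6, 5.90 in Osm, 4.08 in Ebi3 and 2.20 in Lif, against a median of 1.23 over all genes. All 8 have at least 1, as do 65% of genes.

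Of 8 genes that regulate mRNA decay 3 rose and 1 fell with LPS, and 1 rose and 2 fell in tolerized against LPS cells (6 and 1, then 0 and 3, after rescaling). Of all tested genes 8.74% rose and 54.4% fell with LPS, and 36.8% rose and 4.32% fell in tolerized cells. After rescaling the shares were 22.6% and 24.2% with LPS, and 8.86% and 9.28% in tolerized cells. Their medians were 0.11 with LPS and -0.13 in tolerized cells. Zc3h12a encodes Regnase-1, which degrades Il6 and Il12b mRNA. It had 137.9, 166.1 and 23.1 FPKM in tolerized, LPS and naive KO cells, against 130.4, 125.6 and 21.3 in tolerized, LPS and naive WT cells. It rose by 2.65 ± 0.22 with LPS (limma adjusted p = 0.0005) and differed by -0.11 ± 0.22 between tolerized and LPS cells (adjusted p = 0.721). Arid5a, which stabilises Il6 mRNA, rose by 1.43 ± 0.23 with LPS and fell by 0.83 ± 0.23 in tolerized cells (adjusted p = 0.00275 and 0.0339).

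Zfp36, whose product tristetraprolin binds AU-rich elements, rose by 2.13 ± 0.33 with LPS and fell by 1.44 ± 0.33 in tolerized cells (limma adjusted p = 0.00224 and 0.0187). Its relative Zfp36l2 fell by 2.70 ± 0.22 with LPS (adjusted p = 0.00048) and rose by 0.89 ± 0.22 in tolerized cells, the last not after rescaling. Of 9 tested STAT3 target genes (Il1rn was left out for the same reason as Jak2) 4 rose and 0 fell with LPS (8 and 0 after rescaling), with a median of 1.01, led by Socs3, the kinase gene Pim1 (3.59 ± 0.24) and the protease inhibitor gene Timp1 (3.35 ± 0.87). The shares over all tested genes with LPS were 8.74% risen and 54.4% fallen, and 22.6% and 24.2% after rescaling. In tolerized against LPS cells 2 of the 9 STAT3 targets fell, Pim1 by 1.63 ± 0.24 and Junb by 1.14 ± 0.25. Il4ra rose by 0.92 ± 0.27, not after rescaling. In that comparison 36.8% of all tested genes rose and 4.32% fell, and 8.86% and 9.28% after rescaling. No gene of these lists was called between KO and WT.

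Against naive cells, in tolerized cells 7.41% of all tested genes rose and 19.7% fell. Of the 4 receptors 0 rose and 2 fell, Il11ra1 by 2.29 ± 0.27 and Il27ra by 1.07 ± 0.18 (limma adjusted p = 0.00404 and 0.00995). Of the 12 JAK-STAT and SOCS genes 4 rose, among them Socs1 (4.26 ± 0.57) and Socs3 (3.79 ± 0.41). Of the 15 regulators of transcription 4 rose, led by Il10 (3.92 ± 0.27), Nfkbiz (2.83 ± 0.24) and the NF-kappaB subunit gene Rel (1.41 ± 0.38). Zc3h12a rose by 2.54 ± 0.22, Zfp36l2 fell by 1.81 ± 0.22, and the STAT3 targets Pim1 and Timp1 rose by 1.96 ± 0.24 and 3.41 ± 0.87.

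The 3 genes most like each member were taken over the 6 libraries from 7302 genes, by the root mean square difference of centred log2(FPKM + 1). Il12b and Lif were nearest to each other, at 0.21. Il12b was next nearest to Ptx3 (0.57) and Gbp5 (0.58), and Lif to Gbp5 (0.47) and Edn1 (0.54). Il23a was nearest to Ptx3 (0.31), a soluble pattern recognition protein, Gm14047 (0.37) and Adm (0.48). Il27 was nearest to the interferon-induced genes Ifit1 (0.54) and Oasl1 (0.64) and to Tnf (0.64).

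Il6 was nearest to Cxcl1 (1.04), Il1b (1.05) and Ptgs2 (1.08), a chemokine, a cytokine and the inducible cyclooxygenase. These distances are larger than those of the other members, but Il6 also moved most. Its own root mean square around its mean was 4.51, against 0.836 for Ebi3, and the distances are not scaled to it. Il12a was nearest to Slco3a1 (0.60) and the chemokines Ccl2 (0.66) and Ccl7 (0.69). Osm was nearest to Mycl1 (0.39), Peli1 (0.39) and Nr4a3 (0.40), and Ebi3 to Dtx2 (0.18), Pola2 (0.22) and Pvr (0.22). Mycl1 had only 0.0174 and 0.0865 FPKM in naive KO and WT cells, where the scale used understates change. These distances describe 6 libraries that share conditions.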

How the data were processed

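Gene-level FPKM values with interval bounds, 1 table for each library, were deposited by the authors (per the file headers). The labels' protocols name poly-A selection and a TruSeq kit. Tools named were bcl2fastq 1.8.4, TopHat and Cufflinks, with build mm9, per the submitters' processing notes; the sources used here give no other version, no annotation and no strand setting. Of 23699 rows, 349 not marked OK in a library, 712 with a repeated symbol and 802 of small RNAs were left out, leaving 22162. Read counts were not used; fragments were judged from the interval widths (half-width taken as 2 standard errors), and 76.1% of 41203 values below 200 came out whole within 0.1.

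Samples were grouped by title. limma 3.58.1 (R 4.3.3, trend, two-sided, genotype plus condition) was run on log2(FPKM + 1). It covered the 10139 genes that reached 2 FPKM in 2 or more libraries, with 2 residual and 4.2 prior degrees of freedom. Benjamini-Hochberg adjustment was used (threshold 0.05). The fit was also run on simulated data with noise of equal size in every gene, which does not show its error rates here. The log2(FPKM + 1) scale understates the change of low genes. Pairs of libraries used a 2-fold rule among genes with 2 FPKM in either, with no test. Rescaling divided each library by its median-of-ratios factor (0.688 to 1.31). Other alternatives were a pseudocount of 0.1, no filter, a 3-fold rule and leaving out each library. All members were named, with the 3 largest called changes per list and contrast and 10 genes always named; 1 gene that this rule picks is not reported here. The members and lists were chosen with earlier results of these data known.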

Additional observations from a re-analysis of the deposited data

Results flagged for a closer look

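Il12a was picked out because its tolerized and LPS levels differed in opposite directions in the genotypes, by -0.59 on the log2(FPKM + 1) scale in KO cells and 0.61 in WT cells. After rescaling by median of ratios the WT difference was 0.06 and the KO difference -1.24, so the size of the WT difference depends on the scaling. The difference between the genotypes was not tested, since each group is 1 library.

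For 6 members the KO and WT levels differed in opposite directions in different conditions, also without a test of that difference. KO minus WT, in tolerized, LPS and naive cells, was -0.51, 0.28 and 1.89 for Il6 and -0.44, 0.76 and 0.73 for Il12a. It was -0.59, -0.82 and 0.47 for Il12b, and -0.39, -0.38 and 0.71 for Lif. It was 0.45, -0.31 and 1.01 for Il27, and 0.18, -0.26 and 0.73 for Ebi3. All 6 were higher in naive KO than in naive WT cells, where Il12a, Il12b and Lif were below 2 FPKM in both.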

How the results depend on the processing

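No paired analysis was possible because each group has 1 library and all carry the same replicate number. Counts of members called stayed within 1.5 times of those reported in every limma alternative. The leave-one-out fits called 7 with LPS, 4 to 7 in tolerized against LPS, 7 to 8 in tolerized against naive and 0 in KO against WT cells; rescaling called 8 with LPS, and no filter 6 in tolerized against naive cells. Of 352 fitted member values under alternatives 324 kept direction and call. Those that turned were Ebi3 with LPS, -0.04 without the LPS WT and -0.065 without the naive WT library (leave-one-out range -0.065 to 0.70); Il12a in tolerized against LPS cells, -0.59 rescaled, -0.58 without the tolerized WT and -0.30 without the LPS WT library (range -0.58 to 0.60); and, in KO against WT cells, Lif, 0.33 with a pseudocount of 0.1 and 0.16 without either tolerized or either LPS library (range -0.38 to 0.16), Il6, -0.12 without either naive library (range -0.12 to 1.08), and Ebi3, -0.038 without either naive library (range -0.038 to 0.46). Ebi3 in LPS against naive KO cells was 0.70 when rescaled. By the 2-fold rule 2 members differed between naive KO and WT cells, 1 when rescaled or at 3-fold; the 1 in LPS cells became 0 under either, and the 1 in tolerized cells 0 at 3-fold. The cause was not tested.

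Counts over all genes moved more. In tolerized against LPS cells 3733 rose and 438 fell, against 2262 and 262 with no filter, 197 and 70 without the LPS KO, 1165 and 212 without the LPS WT, 1636 and 318 without the tolerized KO and 1997 and 270 without the tolerized WT library. In tolerized against naive cells 751 rose and 2000 fell, against 960 and 1153 when rescaled, 495 and 1328 with no filter, 485 and 1136 without the naive WT and 504 and 1004 without the tolerized WT library. With no filter Il23a and Osm lost their calls there (adjusted p = 0.0523 and 0.051), and Osm also with condition as the sole term (0.0713). Naive levels of 6 members, all but Ebi3 and Osm, rest on 1 to 112 fragments, the fewest for Il23a, with 6 in KO cells and 1 in WT cells.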

Other observations

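Il23r, which encodes the signalling chain of the IL-23 receptor, was singled out after its values were seen. It had 1.98, 5.13 and 0.827 FPKM in tolerized, LPS and naive KO cells, against 0.321, 0.251 and 0.0208 in tolerized, LPS and naive WT cells. KO was higher in 3 of 3 conditions. It reached 2 FPKM in only 1 library and so was not among the 10139 genes tested. In the limma fit with no filter KO minus WT was 1.44 ± 0.32 (unadjusted p = 0.0105, adjusted p = 0.832), which did not pass.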
